A study of Rattus norvegicus with 9 samples.

Results

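The genes that build cholesterol and fatty acids were followed across 9 fetal rat lungs. The set held 38 genes, taken by symbol from a list chosen with earlier results of these data known. It had 18 enzymes of sterol synthesis, 6 regulators and carriers of the sterol pathway, and 14 genes of fatty acid synthesis. All 38 were found in the table of 17465 genes by NCBI Gene ID, all had a mean of at least 1 CPM (counts relative to the scaled library size, the unit of all levels given) over the 9 libraries, and all were among the 12966 genes tested. The lowest mean was that of Tm7sf2, at 3.48 CPM, so no member lay near the limit. The lungs came from Sprague-Dawley rats and formed 3 groups of 3 libraries. Control lungs had no treatment, hypoplastic lungs were left without treatment, and treated lungs were hypoplastic lungs given extracellular vesicles of amniotic fluid stem cells (AFSC-EV). Per the title of the series, the hypoplasia of both the untreated and the treated lungs is secondary to oligohydramnios, in which the fetus has too little amniotic fluid. The sources used here do not give fetal age, litter, vesicle dose, route or time of treatment. RNA of whole lung was sequenced after removal of ribosomal RNA.

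Cells make cholesterol from acetyl-CoA through mevalonate, isoprenoids, squalene and lanosterol. When sterols in the endoplasmic reticulum run low, SCAP carries the membrane-bound factors encoded by Srebf1 and Srebf2 to the Golgi, where they are cut and released to switch on the enzymes. The proteins encoded by Insig1 and Insig2 hold SCAP back when sterols are plentiful, and Insig1 is itself a target of the pathway. Fatty acid synthesis also starts from cytosolic acetyl-CoA and yields palmitate. In the lung before birth, alveolar type II cells use palmitate for phosphatidylcholine, the main lipid of surfactant, and surfactant also holds cholesterol.

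Library totals ran from 56922779 to 88243188 estimated counts, and every member had at least 150 counts in every library. The 8 alveolar type II markers summed to 2316 to 6000 CPM in each library, and the highest sum was that of control library 2. Red cell genes were also highest there, at 11920 CPM against 3571 to 7113 CPM in the other libraries. Hypoplastic library 2 held 9601 CPM of fibroblast collagen and stroma markers, against 1143 to 3381 CPM elsewhere. Heart muscle markers summed to 204 and 90.8 CPM in hypoplastic libraries 1 and 2 and to at most 15.6 CPM in the other 7. By Xist and Y-linked genes, 2 control lungs, 1 hypoplastic and 1 treated lung were male. In whole lung, fewer cells of a type and less RNA per cell cannot be told apart.

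Hypoplastic lungs were set against control lungs to ask how these genes differ in hypoplasia. A small set of sterol genes, picked by an unadjusted edgeR p under 0.05 in this comparison, was higher in the hypoplastic lungs. Hmgcs1, Cyp51, Msmo1, Insig1 and Stard4 were 1.25- to 1.42-fold higher. No hypoplastic library overlapped a control library in any of them, which after that pick is not separate support. Fasn, Acaca, Gpam and Srebf1, which belong to fatty acid synthesis, were lower. Acss2 and Elovl6, also of the fatty acid branch, were higher. None of the 38 passed an adjusted p of 0.05 in edgeR's quasi-likelihood test, where 0.00771% of all genes tested did, and the smallest adjusted p among them was 0.317. At an unadjusted p under 0.05 edgeR found 7 members higher (18.4%, against 6.67% of all genes) and 4 lower (10.5%, against 5.69%). DESeq2 and limma voom also counted 7 higher and 4 lower. Of all genes, in either direction, DESeq2 had 1842 of 14853 at such a p and limma voom 1303 of 12966. DESeq2 called Fasn, as 1 of 212 genes it called. The edgeR total of 11 was 5 without control library 2 and 7 without hypoplastic library 2. Over all genes the edgeR total was 853 and 1179 in place of 1603. The hypoplastic libraries lay wholly above the controls for 9 members (23.7%, against 7.68% of all genes) and wholly below for 5 (13.2%, against 9.05%).

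Hmgcs1, the cytosolic HMG-CoA synthase at the entry to the mevalonate steps, was at 61.8, 70.9 and 53.7 CPM in the control lungs and at 81.2, 76.3 and 90.5 CPM in the hypoplastic lungs. The lowest hypoplastic lung was above the highest control, and the log2 fold change was 0.41 (SE 0.129, edgeR p 0.0103, adjusted p 0.323). Cyp51, which removes a methyl group from lanosterol, had the largest difference of the sterol enzymes. Its levels were 142, 117 and 130 CPM in control and 210, 173 and 172 CPM in hypoplastic lungs. The groups did not overlap, and the log2 difference was 0.51 (SE 0.181, edgeR p 0.0196, adjusted p 0.347). Msmo1, the methylsterol oxidase that acts after Cyp51, stood at 48.1, 54.5 and 42.3 CPM in control and at 68.6, 68.4 and 60.9 CPM in hypoplastic lungs. The groups did not overlap, with a log2 fold change of 0.45 (SE 0.174, edgeR p 0.0282, adjusted p 0.366).

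Markers of other cells also differed between the libraries. Neutrophil markers summed to 6.63 to 13.0 CPM in control, 52.2 to 95.3 CPM in hypoplastic and 18.8 to 78.7 CPM in treated lungs, and all 5 that had a mean of at least 1 CPM were higher in hypoplastic than in control lungs. In treated against control lungs all 5 neutrophil markers were higher, with a median log2 fold change of 2.3. The 5 macrophage markers with a mean of at least 1 CPM were all higher there too, with a median of 0.68. Macrophage markers summed to 25.7 to 94.99, 63.3 to 210 and 59.99 to 178 CPM in the same order of groups, with overlap. The part of these cells, and of the heart muscle and fibroblast markers, in the sterol values was not tested. With any 1 library left out, the log2 fold change of Hmgcs1 was between 0.32 and 0.52.

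The other 15 sterol enzymes did not share this difference as a block. Over the 18 enzymes 11 were higher and 7 lower, from -0.29 (Mvk) to 0.51 (Cyp51) on the log2 scale, with a median of 0.06 against 0.01 over all genes tested. Pmvk, at 6.07, 6.01 and 5.87 CPM in control and 8.16, 6.71 and 6.44 CPM in hypoplastic lungs, and Fdps, both enzymes of the mevalonate and isoprenoid steps, also lay above control without overlap. Fdps, which makes farnesyl diphosphate, was at 96.0, 91.0 and 91.5 CPM in control and 121, 103 and 105 CPM in hypoplastic lungs. Mvk, the mevalonate kinase, went the other way without overlap, at 30.2, 38.8 and 31.5 CPM in control and 28.6, 23.7 and 29.6 CPM in hypoplastic lungs. Sqle, the squalene epoxidase and a control point of the later steps, differed by 0.09 (95% interval -0.34 to 0.52). For the mevalonate and isoprenoid enzymes the median was 0.24 over 7 genes, and for the enzymes from squalene on it was 0.05 over 11. The median of the 18 enzymes was -0.07 when control library 3 was left out and 0.13 when control library 2 was.

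**Figure D1:**
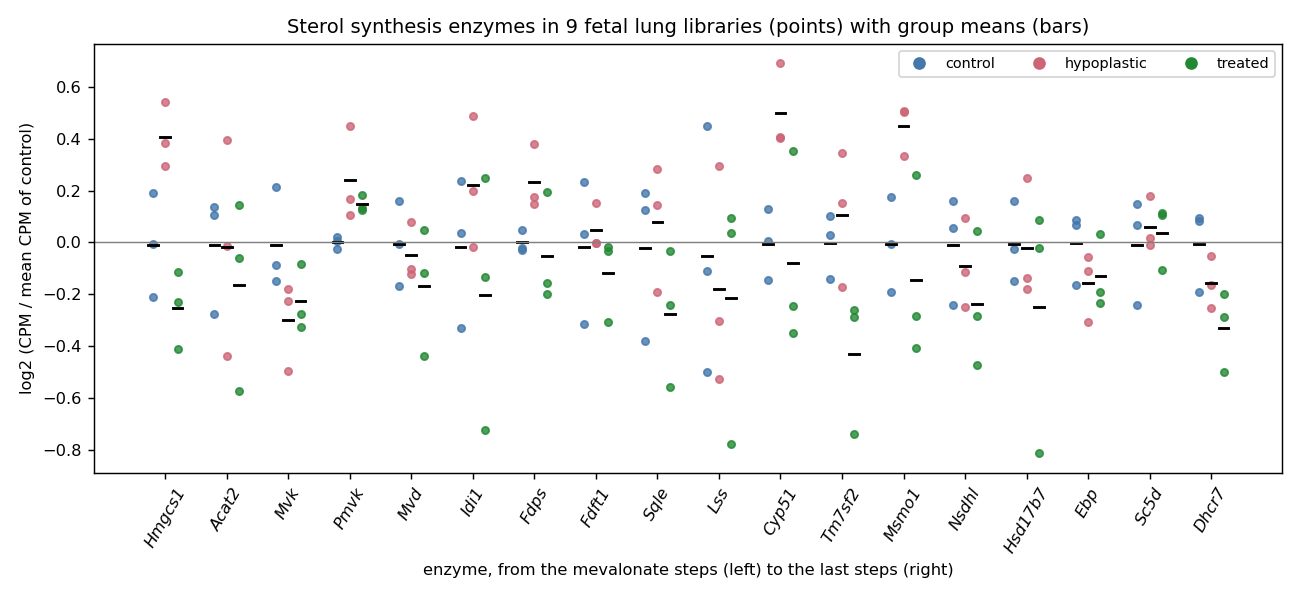
Levels of the 18 sterol synthesis enzymes in each library, as log2 of CPM over the mean CPM of control (y axis), roughly in the order of the pathway (x axis). Points are libraries and bars are group means of these log2 values. The 3 hypoplastic points sit above all control points for Hmgcs1, Pmvk, Fdps, Cyp51 and Msmo1, and treated library 3 is the lowest point for 13 of the 18 enzymes.

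Among the regulators, Insig1 and the carrier Stard4 were higher in hypoplastic lungs while the factor genes were lower. Insig1 was at 192, 167 and 205 CPM in control and at 235, 230 and 244 CPM in hypoplastic lungs, the tightest of the 3 groups. Its log2 fold change was 0.33 (SE 0.117, edgeR p 0.0195, adjusted p 0.347). Stard4, a soluble protein that moves cholesterol between membranes, was at 43.6, 35.9 and 42.6 CPM in control and at 53.7, 44.4 and 63.3 CPM in hypoplastic lungs. The difference was 0.40 (SE 0.150, edgeR p 0.0243, adjusted p 0.360), and it was 0.27 without hypoplastic library 3. Srebf1, whose product drives mainly fatty acid genes, was at 67.3, 72.9 and 65.2 CPM in control and lower in each hypoplastic lung, at 51.7, 62.3 and 57.5 CPM. The log2 difference was -0.26 (SE 0.109, edgeR p 0.0390, adjusted p 0.386). Srebf2, whose product drives mainly sterol genes, was also lower without overlap, at 368, 458 and 394 CPM in control and 320, 367 and 366 CPM in hypoplastic lungs. Its unadjusted edgeR p was 0.0974. Scap and Insig2 overlapped between the groups, with log2 differences of -0.19 and 0.16.

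The promoters of the members whose unadjusted edgeR p was under 0.05 both here and in treated against hypoplastic lungs are shown, since these genes were high in the same lungs. Of these 6 genes, 5 have an entry in the RefSeq promoter table (assembly GRCr8, a later build than the rn7 named for the counts, which were not assigned with these coordinates). Each run gives the 250 bases before the annotated start, read along the gene's strand. Capitals mark CCAAT, the letters bound by NF-Y, GGGCGG, those bound by Sp1, and CACGTG, an E box, each on either strand. No marked motif overlaps another.
Hmgcs1, chr2:53382054-53382303, strand +: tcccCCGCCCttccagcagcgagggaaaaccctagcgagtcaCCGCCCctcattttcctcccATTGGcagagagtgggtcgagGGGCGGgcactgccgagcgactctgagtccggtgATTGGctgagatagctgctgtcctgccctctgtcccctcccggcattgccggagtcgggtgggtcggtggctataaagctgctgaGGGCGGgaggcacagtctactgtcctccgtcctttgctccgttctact
Cyp51, chr4:30991443-30991692, strand +: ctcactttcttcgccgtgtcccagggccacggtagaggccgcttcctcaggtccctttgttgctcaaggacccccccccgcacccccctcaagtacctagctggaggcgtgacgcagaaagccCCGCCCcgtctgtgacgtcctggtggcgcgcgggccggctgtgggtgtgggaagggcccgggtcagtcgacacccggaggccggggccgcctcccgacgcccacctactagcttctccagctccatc
Msmo1, chr16:29746863-29747112, strand +: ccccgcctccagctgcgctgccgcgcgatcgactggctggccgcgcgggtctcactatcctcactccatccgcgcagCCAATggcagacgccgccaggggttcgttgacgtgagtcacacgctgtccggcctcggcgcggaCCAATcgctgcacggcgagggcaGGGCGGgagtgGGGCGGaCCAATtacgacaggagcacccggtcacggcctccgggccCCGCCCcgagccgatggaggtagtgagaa
Insig1, chr4:8057770-8058019, strand -: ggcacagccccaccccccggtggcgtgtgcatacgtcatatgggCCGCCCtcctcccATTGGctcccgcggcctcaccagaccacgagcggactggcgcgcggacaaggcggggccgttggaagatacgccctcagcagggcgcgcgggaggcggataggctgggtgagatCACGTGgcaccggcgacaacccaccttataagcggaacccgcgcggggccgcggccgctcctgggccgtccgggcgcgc
Acss2, chr3:164464453-164464702, strand +: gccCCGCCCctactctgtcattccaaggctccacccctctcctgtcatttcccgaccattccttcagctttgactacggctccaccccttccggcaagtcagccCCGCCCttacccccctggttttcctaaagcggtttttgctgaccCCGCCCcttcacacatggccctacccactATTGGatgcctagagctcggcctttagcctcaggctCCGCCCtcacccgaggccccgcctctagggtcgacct
The Hmgcs1 window holds CCAAT at 2 places and Msmo1 at 3, Insig1 and Acss2 hold it once, and the Cyp51 window holds none. The only E box of the 5 lies in Insig1, 79 bases before the start. Over the full 300-base promoters (50 bases after the start included), CCAAT was present in 24 of 32 promoters of 31 members (75.0%) and in 37.5% of all 33469 promoters. GGGCGG was present in 23 of 32 (71.9%) and in 33.1% of all, and CACGTG in 4 (12.5%) and 6.42%. The core TCACNCCAC of the sterol response element, to which the Srebf factors bind, was found in 0 of 32 and in 1.12% of all promoters. The set of all promoters was not limited to genes tested here, whereas every member was tested, so these shares compare unlike sets. Whether they are particular to the members was not tested. A match is a description of the letters, and its absence says only that they are not in this window.

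Of the fatty acid genes, Fasn, Acaca and Gpam were lower in hypoplastic lungs, while more of the 14 were higher than lower. Fasn, the synthase that makes palmitate, was at 713, 1276 and 676 CPM in control and at 482, 551 and 529 CPM in hypoplastic lungs. No hypoplastic lung reached a control level, and the log2 fold change was -0.77 (SE 0.223, edgeR p 0.00653, adjusted p 0.317). DESeq2 alone called it, with an adjusted p of 0.0495, while over all alternatives the adjusted p ran from that value to 0.762. Control library 2 set much of the size: without it the log2 fold change was -0.42. Acaca, the acetyl-CoA carboxylase that feeds Fasn, was at 118, 119 and 106 CPM in control and at 101, 87.0 and 91.4 CPM in hypoplastic lungs. Those groups did not overlap either (log2 fold change -0.30, SE 0.102, edgeR p 0.0144, adjusted p 0.331). Gpam, which starts the assembly of phospholipids and triglycerides, was at 97.5, 145 and 116 CPM in control and 87.9, 88.9 and 98.4 CPM in hypoplastic lungs, with overlap. Its log2 fold change was -0.38 (SE 0.144, edgeR p 0.0251, adjusted p 0.361), and -0.22 without control library 2.

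The alveolar type II markers moved with these genes: all 8 were lower in hypoplastic lungs, with a median log2 fold change of -0.81. Their summed level was 3244, 6000 and 4152 CPM in control and 2814, 2316 and 2654 CPM in hypoplastic lungs. Fasn and the marker sum were both highest in control library 2. The part of these markers in the Fasn, Acaca and Gpam values was not tested. Liver, adipocyte and adrenal cortex markers, tissues rich in lipid synthesis, had no gene at a mean of 1 CPM, and their sums reached at most 12.5, 0.466 and 7.01 CPM in any library. The liver value of 12.5 CPM was that of control library 2, where Fasn was also highest, against at most 0.303 CPM in the other 8 libraries. It came from Apob (6.6 CPM) and Apoa1 (5.65 CPM). In that library Alb was at 0.036, Ahsg at 0.071, Ttr at 0.107 and Apoa2 at 0 CPM. The adrenal value was that of hypoplastic library 2 and came from Cyp11b1, at 6.61 CPM. Star, Cyp11a1, Cyp21a1 and Mc2r were at 0.18 CPM or less there. The part of these tissues in the values of the members was not tested.

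Acss2, which makes acetyl-CoA from acetate, was higher in the hypoplastic lungs, at 10.7, 11.5 and 10.8 CPM against 8.43, 6.48 and 7.80 CPM in control. It had the largest positive difference of the 38 genes (log2 fold change 0.54, SE 0.160, edgeR p 0.00746, adjusted p 0.317). Elovl6, the elongase that lengthens palmitate, was at 3.89, 3.75 and 4.46 CPM in control and at 5.60, 6.09 and 4.87 CPM in hypoplastic lungs. These groups did not overlap, with a log2 fold change of 0.45 (SE 0.173, edgeR p 0.0268, adjusted p 0.366). Acly, which cuts citrate to acetyl-CoA, differed by -0.28 (95% interval -0.66 to 0.10). Scd, a desaturase, differed by 0.04 with a wide interval of -0.85 to 0.93, because hypoplastic library 2 held 52.6 CPM and libraries 1 and 3 held 26.3 and 15.3 CPM. Without library 2 the difference was -0.56. Over the 14 fatty acid genes 8 were higher and 6 lower, with a median of 0.05, which ran from -0.04 without hypoplastic library 2 to 0.08 without control library 3.

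**Figure D2:**
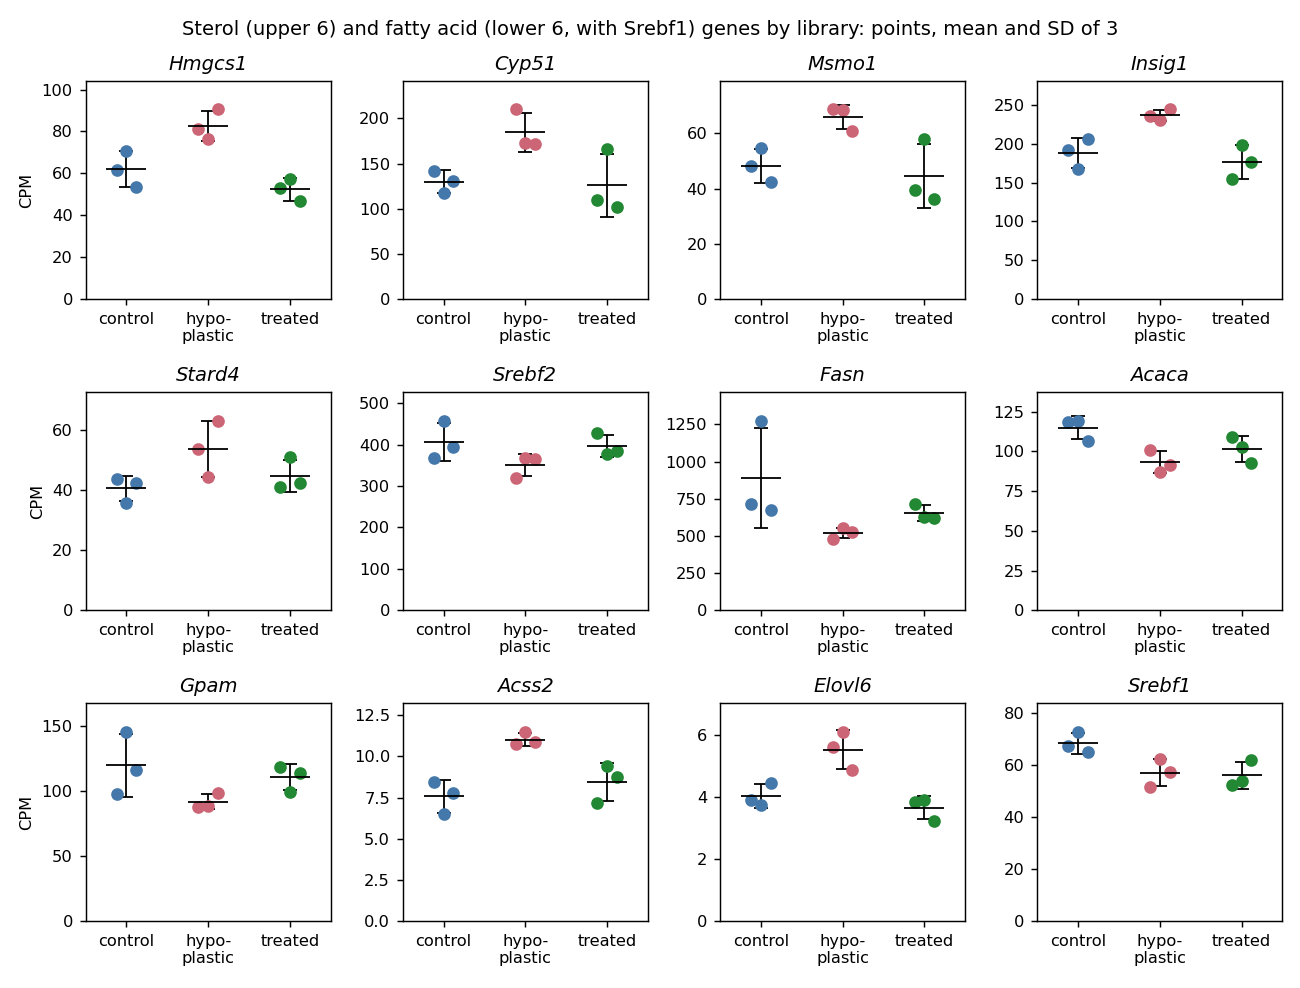
CPM (y axes, from 0) of 12 members in the 3 control, 3 hypoplastic and 3 treated libraries. Points are libraries, and the bars give the mean and the SD of 3. Hypoplastic points are the highest for Hmgcs1, Cyp51, Msmo1, Insig1, Acss2 and Elovl6 and the lowest for Fasn, where control library 2 stands at 1276 CPM.

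Treated hypoplastic lungs were set against untreated ones to ask how these genes differ after vesicle treatment. Of the sterol genes that were high in hypoplastic lungs, 4 were lower in treated lungs at an unadjusted edgeR p under 0.05: Hmgcs1 was 0.63-fold, Msmo1 and Cyp51 0.68-fold and Insig1 0.75-fold the untreated level. Elovl6, Acss2, Tm7sf2, Fdps and Scd were lower as well. The Fasn, Acaca and Gpam means were higher in treated lungs, none at an unadjusted edgeR p under 0.05 with all 9 libraries. Fasn and Gpam were under it with only the 6 libraries compared and without control library 2, and Gpam without control library 1. This comparison uses the same hypoplastic libraries as the one before it, so opposite signs in the pair are not independent. By edgeR 0 members were called, as were 0% of all genes tested, and the smallest adjusted p among members was 0.826. DESeq2 called Hmgcs1, with an adjusted p of 0.0155, as 1 of 15 genes it called, and limma voom called 0. At an unadjusted p under 0.05 edgeR found 0 members higher (2% of all genes) and 9 lower (23.7%, against 3.56%), DESeq2 9 lower and limma voom 8 lower. Of all genes, in either direction, DESeq2 had 819 of 14853 at such a p and limma voom 565 of 12966. The edgeR count was 5 without treated library 1, and over all genes it was 375 in place of 721. Treated libraries lay wholly below the untreated for 9 members (23.7%, against 4.74%) and wholly above for 3 (7.89%, against 5.07%).

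Hmgcs1 was at 52.9, 57.5 and 46.7 CPM in the treated lungs, each below every untreated hypoplastic lung. The log2 fold change was -0.66 (SE 0.130, edgeR p 0.000549), and it stayed between -0.73 and -0.58 when any 1 library was left out. The adjusted p of Hmgcs1 spanned 0.0155 to 1 over the alternatives, and it was 1 without treated library 1. Cyp51 was at 110, 166 and 102 CPM in treated lungs, the middle value close to the untreated ones. It differed by -0.55 (SE 0.181, edgeR p 0.0127, adjusted p 0.859). Msmo1 followed the same order of lungs, at 39.6, 57.9 and 36.4 CPM, with a log2 fold change of -0.56 (SE 0.174, edgeR p 0.00949, adjusted p 0.859). Without treated library 2 the differences of Cyp51 and Msmo1 were -0.80 and -0.79.

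Insig1 was at 155, 199 and 176 CPM in treated lungs, below all untreated lungs (log2 fold change -0.42, SE 0.117, edgeR p 0.00511, adjusted p 0.826). Tm7sf2, a sterol reductase, had levels of 3.26, 4.08 and 4.67 CPM in untreated and 3.07, 3.01 and 2.20 CPM in treated lungs, with no overlap and a log2 fold change of -0.53 (edgeR p 0.0313). Fdps was at 83.2, 106 and 80.9 CPM in treated lungs, overlapping the untreated ones, with a log2 fold change of -0.28 (edgeR p 0.0445). Stard4 overlapped too, at 41.0, 51.0 and 42.6 CPM. Srebf2 was higher in every treated lung than in any untreated one, at 428, 378 and 384 CPM, but its log2 difference was 0.18 (95% interval -0.08 to 0.44). Srebf1 differed by -0.02 (95% interval -0.27 to 0.22), with treated levels of 52.6, 53.9 and 62.1 CPM. Over the 18 sterol enzymes 2 were higher and 16 lower, with a median of -0.17 against -0.01 over all genes, and the median ran from -0.30 without treated library 2 to -0.08 without treated library 3.

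Of the fatty acid genes, Elovl6 was at 3.83, 3.91 and 3.23 CPM in treated lungs, below all untreated ones (log2 fold change -0.59, SE 0.173, edgeR p 0.00678, adjusted p 0.826). Acss2 was at 7.15, 9.41 and 8.74 CPM, also below them (log2 fold change -0.38, SE 0.159, edgeR p 0.0370, adjusted p 0.895). Scd had the largest size, -0.995 (SE 0.402, edgeR p 0.0338, adjusted p 0.895), with treated levels of 11.8, 16.9 and 18.7 CPM, and it was -0.40 without hypoplastic library 2. Fasn was at 718, 626 and 623 CPM in treated lungs, above all untreated lungs, with a log2 difference of 0.33 (95% interval -0.16 to 0.83, edgeR p 0.166). Acaca and Acly differed by 0.12 and 0.11, with overlap. Alveolar type II markers were higher in treated lungs for 8 of 8, with a median of 0.47 and sums of 4039, 3464 and 2873 CPM, and their part in the Fasn value was not tested. Over the 14 fatty acid genes 4 were higher and 10 lower, with a median of -0.11.

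**Figure D3:**
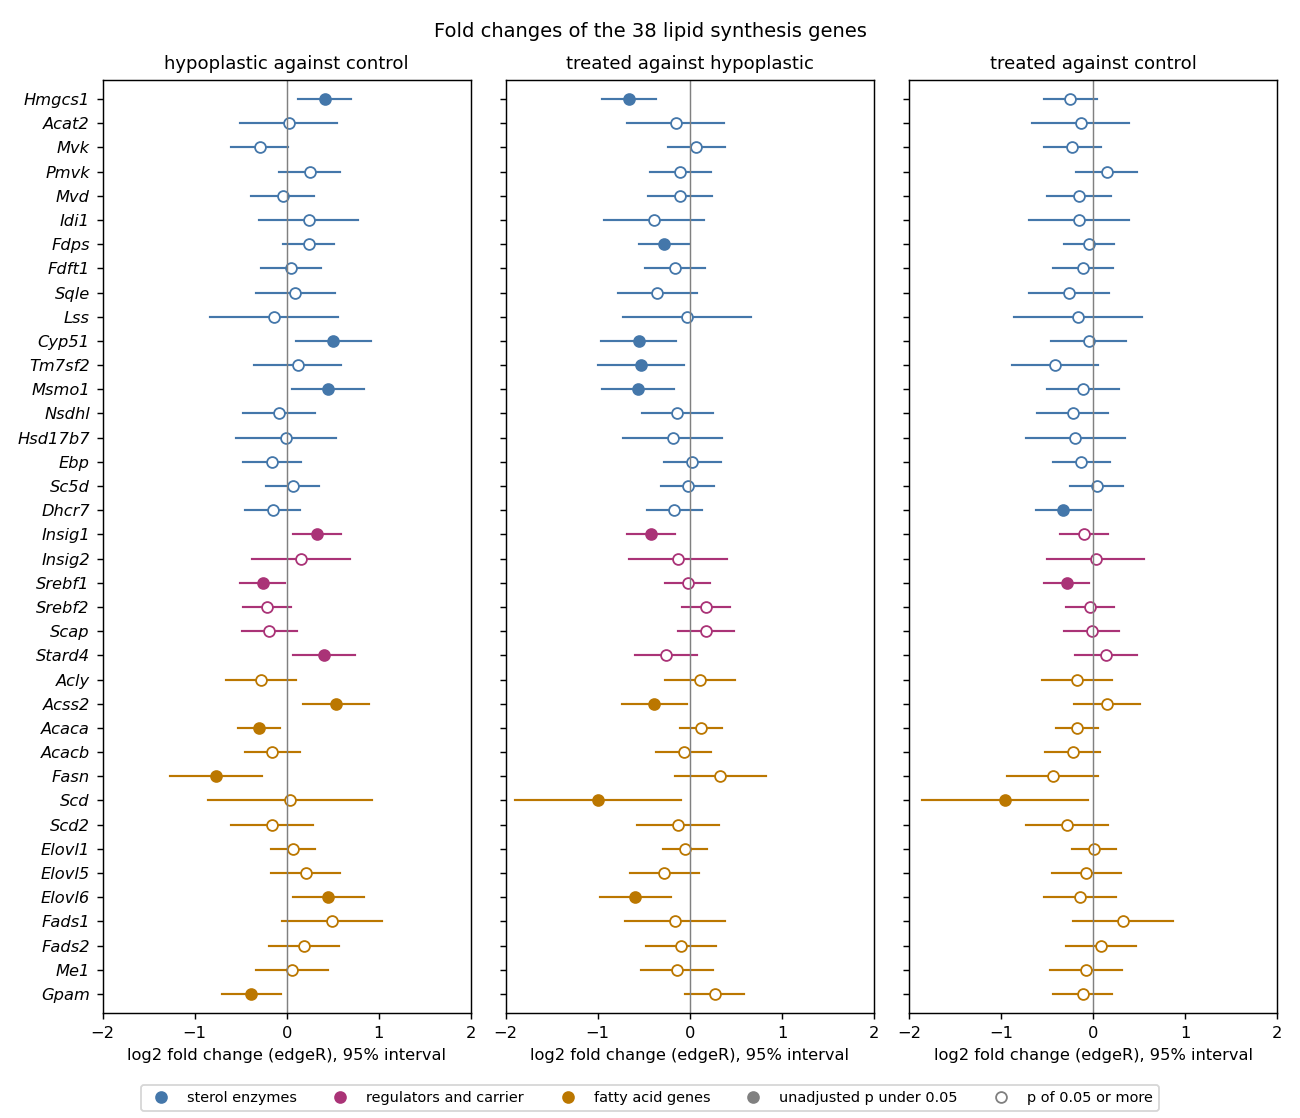
Log2 fold changes (x axes, with 95% intervals from the edgeR standard error) of the 38 genes (y axis) in the 3 comparisons, coloured by sterol enzymes, regulators and carrier, and fatty acid genes. Filled points have an unadjusted p under 0.05. The filled points number 11, 9 and 3 from left to right, and no gene is past the adjusted threshold.

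Treated lungs were set against control lungs to ask what differed between them. By edgeR 0 members were called (0% of all genes), and the smallest adjusted p-value of any member was 0.998. DESeq2 and limma voom also called 0 members, while DESeq2 called 16 of all genes. At an unadjusted p under 0.05 edgeR, DESeq2 and limma voom each found 0 members higher (1.67% of all genes by edgeR) and 3 lower (7.89%, against 2.5%). The lower members were Dhcr7, Srebf1 and Scd by edgeR. Of all genes, in either direction, DESeq2 had 644 of 14853 at such a p and limma voom 500 of 12966. The edgeR count was 1 without control library 1, control library 2, treated library 1 or treated library 2, and 5 without control library 3. Over all genes it was 572, 382, 438, 478 and 638 in that order, in place of 541. Dhcr7, which turns dehydrocholesterol into cholesterol, was at 23.6, 23.4 and 19.3 CPM in control, 21.3, 18.5 and 19.7 CPM in hypoplastic and 19.3, 18.1 and 15.6 CPM in treated lungs. The log2 fold change of treated against control was -0.32 (SE 0.132, edgeR p 0.0353). Srebf1 differed by -0.28 (SE 0.109, edgeR p 0.0267), without overlap. Scd differed by -0.96 (SE 0.402, edgeR p 0.0394), with control levels of 36.6, 20.9 and 34.2 CPM. Hmgcs1, Cyp51, Msmo1 and Insig1 each overlapped between treated and control lungs. For Hmgcs1 the difference was -0.25 (95% interval -0.54 to 0.04) and for Insig1 -0.09 (95% interval -0.36 to 0.17). Fasn differed by -0.44 (95% interval -0.94 to 0.06), and by -0.08 without control library 2. Treated libraries lay wholly above control for 1 member (2.63%, against 4.37% of all genes), Pmvk, and wholly below for 4 (10.5%, against 5.02%). Of the 18 sterol enzymes 16 were lower, with a median of -0.15, and of the 14 fatty acid genes 10 were lower, with a median of -0.13. Over all genes tested 49.4% were lower, with a median of 0.003. The sterol median was -0.31 without treated library 2, -0.26 without control library 3, -0.10 without control library 2 and -0.01 without treated library 3.

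Some libraries carried the sterol pattern more than others. Hypoplastic library 1 had the highest level of all 9 for 8 of the 18 sterol enzymes, and treated library 3 the lowest for 13. The summed CPM of the 18 enzymes was 795, 826 and 677 in control, 965, 807 and 878 in hypoplastic and 689, 838 and 578 in treated lungs. Treated library 2 thus lay inside the range of the untreated hypoplastic lungs, while treated libraries 1 and 3 lay below it. The low values of treated library 3 ran through both ends of the pathway. Idi1, the isomerase that supplies the second isoprene unit, was at 70.5, 81.1 and 54.7 CPM in control, 96.5, 67.8 and 78.8 CPM in hypoplastic and 62.7, 81.6 and 41.6 CPM in treated lungs. Acat2, which joins a pair of acetyl-CoA molecules, was at 64.7, 66.2 and 49.7 CPM in control, 79.2, 44.5 and 59.6 CPM in hypoplastic and 57.7, 66.6 and 40.4 CPM in treated lungs. Both were highest in hypoplastic library 1 and lowest in treated library 3, and the groups overlapped. Hsd17b7, which acts in the removal of methyl groups after lanosterol, followed that order too, from 8.89 CPM in hypoplastic library 1 to 4.26 CPM in treated library 3. Lss, which closes the sterol rings, ranged from 22.1 to 42.7 CPM in control, 21.7 to 38.3 CPM in hypoplastic and 18.2 to 33.3 CPM in treated lungs. Fdft1, the squalene synthase, was at 76.5, 68.7 and 68.7 CPM in hypoplastic and 67.3, 68.0 and 55.6 CPM in treated lungs, so the groups parted by less than 1 CPM. Mvd, Nsdhl, Ebp and Sc5d overlapped in all comparisons. Mvd, the decarboxylase that ends the mevalonate steps, ran from 13.0 CPM in treated library 3 to 19.6 CPM in control library 1. Nsdhl, a later demethylation enzyme, spanned 12.7 to 19.6 CPM over the 9 libraries, the isomerase Ebp 10.7 to 14.1 CPM and the desaturase Sc5d 28.0 to 37.4 CPM.

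The desaturases and elongases of longer chains overlapped between groups in hypoplastic against control. Fads1, which makes polyunsaturated fatty acids, was at 60.8, 36.2 and 61.4 CPM in control, 61.1, 88.1 and 73.1 CPM in hypoplastic and 64.0, 50.5 and 84.2 CPM in treated lungs. Its partner Fads2 was at 41.0, 27.1 and 33.5 CPM in control, 46.7, 34.6 and 34.4 CPM in hypoplastic and 34.6, 37.8 and 35.6 CPM in treated lungs. Control library 2 was the lowest of the 9 for both. Elovl5, an elongase of the same branch, was also lowest there, at 34.8 CPM against 49.0 and 54.6 CPM in the other controls. Its hypoplastic levels of 51.8, 56.7 and 51.2 CPM lay above the treated levels of 37.7, 44.7 and 49.3 CPM. Elovl1, which lengthens very long chains, stayed within 45.5 to 55.7 CPM in all 9 libraries. Scd2, a second desaturase of the Scd type, was at 1922, 1422 and 1842 CPM in control, 1851, 1361 and 1442 CPM in hypoplastic and 1115, 1666 and 1476 CPM in treated lungs, with overlap throughout. Acacb, the mitochondrial acetyl-CoA carboxylase, spanned 16.1 to 22.9 CPM and was highest in control library 2. Me1, the malic enzyme that supplies NADPH, spanned 41.2 to 68.3 CPM, from treated library 3 to hypoplastic library 1.

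In the 14 fatty acid genes no library stood at 1 end in the same way. Control library 2 was highest for 5 of them and lowest for 4, and hypoplastic library 2 was highest for 6. The hypoplastic group had the highest mean of the 3 groups for 22 of the 38 members, control for 16 and treated for 0. The same count was not taken over all genes.

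**Figure D4:**
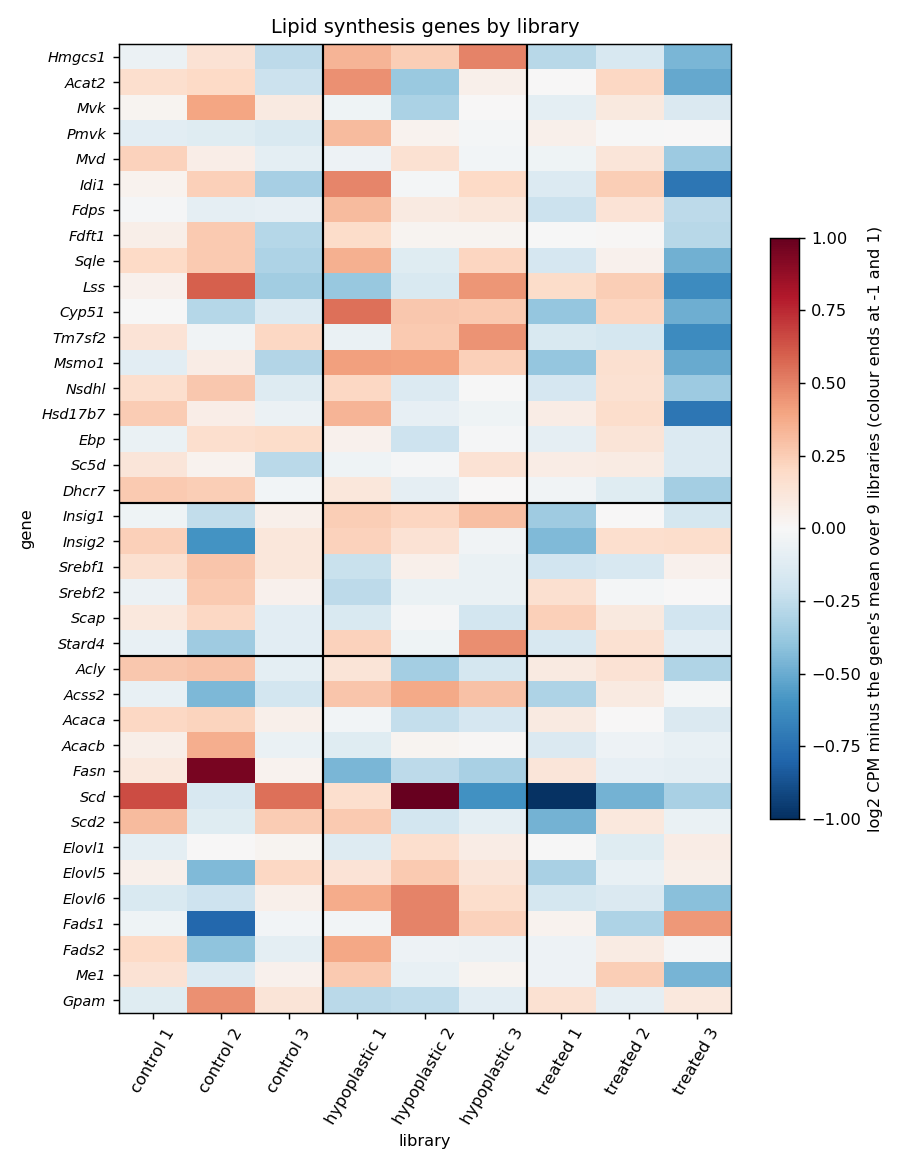
Heat map of the 38 genes (rows) in the 9 libraries (columns), as log2 CPM minus the mean of each gene over the libraries. Lines part the groups and the 3 gene classes. Treated library 3 is low through most sterol enzymes, hypoplastic library 1 is high in 8 of them, and Fasn is highest in control library 2.

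Neighbouring genes of the pathway, from lists outside the 38, are given for context. Npc1 and Npc2, which move cholesterol out of late endosomes and lysosomes, and Stard3 were lower in hypoplastic than in control lungs without overlap. The log2 differences were -0.33, -0.30 and -0.28 (edgeR adjusted p 0.390, 0.375 and 0.360). They come from a list of 12 genes of sterol synthesis and uptake. In it 3 lay wholly below control (25%, against 9.05% of all genes) and 1 wholly above (8.33%, against 7.68%). Of the 12 genes 7 were higher and 5 lower, with a median of 0.06.

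For SREBP processing 5 of 6 listed genes were in the table, and none had an unadjusted p under 0.05 in any comparison. Among 7 genes of the LXR system and sterol efflux, 1 did so in hypoplastic against control (14.3%, against 5.69% of all genes lower), Nr1h2, which encodes a sterol-sensing receptor and was lower by a log2 difference of -0.29. The list of fatty acid uptake and oxidation held 12 genes, with 1 higher in hypoplastic against control (8.33%, against 6.67% of all genes), the lipid-binding Fabp4, and 1 lower in treated against control (8.33%, against 2.5%), the fatty acid transporter Cd36. With 1 gene in each, these shares say nothing about the lists as a whole. Fabp4 rested on hypoplastic library 2, at 10.2 CPM against 2.86 CPM or less in the other libraries. Its log2 fold change of 2.36 had an adjusted p of 0.323 by edgeR and of 0.0275 by DESeq2. In phosphatidylcholine synthesis 11 of 12 genes had a mean of at least 1 CPM. At an unadjusted edgeR p under 0.05 in hypoplastic against control, 1 was higher (9.09%, against 6.67% of all genes) and 1 lower (9.09%, against 5.69%). In treated against hypoplastic 1 was higher (9.09%, against 2%) and 0 lower. Lpcat1, which builds the saturated surfactant phosphatidylcholine, was at 148, 181 and 154 CPM in control, 114, 136 and 114 CPM in hypoplastic and 217, 135 and 163 CPM in treated lungs. It differed by -0.41 in hypoplastic against control (edgeR adjusted p 0.383) and by 0.50 in treated against hypoplastic (edgeR adjusted p 0.859). Chpt1, which adds phosphocholine to diacylglycerol, was higher in hypoplastic than in control lungs without overlap, by 0.57 (edgeR adjusted p 0.317). Of the 11 genes 1 lay wholly above control (9.09%, against 7.68% of all genes) and 2 wholly below (18.2%, against 9.05%). No gene named from these lists passed the adjusted threshold by edgeR.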

How the data were processed

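RNA of 9 whole fetal lungs was measured, 3 per group, with groups taken from the sample titles. The authors deposited 1 table of estimated counts for 17465 genes named by NCBI Gene ID, not normalized between libraries, with 19.5% of nonzero values whole. The submitters' processing notes name build rn7 and DESeq2 without a role, and for the aligner, the counter and the annotation no source used here gives a name. The tests had been planned for counts, so values were rounded to whole numbers. Symbols came from RefSeq (GRCr8, names only), matching 99.1% of the IDs. Reads shared between near-identical genes, such as Scd and Scd2, may have been split in a way not known.

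Genes were tested by the quasi-likelihood method of edgeR (edgeR 4.0.16, R 4.3.3, legacy=FALSE) with TMM normalization and filterByExpr, 9 libraries in 1 fit, and Benjamini-Hochberg adjustment over 12966 genes. Called means an adjusted p under 0.05. CPM uses the TMM-scaled library size. Standard errors are the log2 fold change divided by the square root of F, and 95% intervals follow from them. Alternatives were other size factors and filters, DESeq2 1.42.0, limma voom 3.58.1, only the 6 libraries compared, a replicate block, a sex covariate, removal of ribosomal and 7SL rows, and leaving out each library. The scripts were tested on simulated counts whose spread between libraries was set below that of these data (common biological coefficient of variation 0.253). That check does not show how the tests behave at the spread of these data.

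Members, lists, motifs and the naming rule were chosen with earlier results of these data known. Members with an unadjusted p under 0.05 in a comparison, and 12 regulators and key enzymes, were described singly, along with others added after their values were seen (Fdps, Pmvk and Mvk in hypoplastic against control, and the neighbouring genes). Levels were not compared between genes, since transcript lengths were not used. The labels number the lungs but give no litter, and the tests took each lung as independent. Whether lungs of a group shared a litter is not known, and if they did the p-values could be too small. Some genes of the neighbouring lists are not reported here.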

Additional observations from a re-analysis of the deposited data

How the results depend on the processing

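The edgeR count of called members was 0 in each comparison under the alternatives run with edgeR or limma voom. DESeq2 called 1 (Fasn) in hypoplastic against control, among 212 of all genes, and 1 (Hmgcs1) in treated against hypoplastic, among 15. The count at an unadjusted p under 0.05, and the neighbouring genes, were put through the alternatives after the data were seen. With the sex covariate that count was 7 in hypoplastic against control and 1 in treated against control, and leaving out 1 library gave 5 to 12, 5 to 11 and 1 to 5 in the 3 comparisons. Over all genes the count was 1054 and 368 with the sex covariate. With 1 library left out it ran from 853 to 1700, 375 to 973 and 382 to 638. The fatty acid median in hypoplastic against control was -0.0622 with the sex covariate and -0.0363 to 0.0806 with 1 library left out. The sign of Scd in hypoplastic against control turned with limma voom (-0.103), the replicate block (-0.065) and the sex covariate (-0.127). Leaving out 1 library turned the sign of differences near 0. In hypoplastic against control these ran from -0.0669 to 0.215 for Sqle, -0.0575 to 0.321 for Insig2 and -0.557 to 0.364 for Scd. In treated against hypoplastic they ran from -0.225 to 0.0511 for Insig2 and -0.101 to 0.042 for Srebf1. For treated against control the values were -0.184 to 0.206 for Insig2, -0.0925 to 0.0596 for Srebf2 and -0.115 to 0.0958 for Scap. The cause was not tested.

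No label ties the replicate numbers to a shared litter. Deviations from the group means correlated at -0.282 to 0.227 for same-numbered libraries, above 0.1 in 3 of 9 pairs. For other-numbered libraries of different groups they correlated at -0.439 to 0.389, above 0.1 in 7 of 18 pairs. With the replicate block the count at an unadjusted p under 0.05 in treated against hypoplastic was 5 in place of 9, and over all genes 582 in place of 721. With that block 0 members were called in each comparison. With 3 lungs a group the 95% intervals of most members included 0 in each comparison. The lowest count of a member in any library was 150 (Tm7sf2), and for such low members counting error is not small beside the spread between lungs.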
